A study of Ipomoea batatas with 18 samples.

Results

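In roots of 2 sweetpotato (Ipomoea batatas) cultivars, 11 of 46840 unigenes had their highest mean at 65 days, between lower means at 30 and 100 days, in both cultivars. They were chosen from the values described here, so the peak is a description and carries no test. The rule used means of log2(FPKM + 1) over the 3 libraries of a group. In each cultivar the 65-day mean had to be at least 0.8 above both the 30-day and the 100-day mean, and the mean FPKM over all 18 libraries had to be at least 5, a level that 16616 unigenes reached. FPKM counts fragments per unit of transcript length and per mapped fragments of the library, and a unigene is a transcript of a de novo assembly, put together from the reads without a genome.

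The cultivars were the high-starch Chuanshu 218 (HS) and the low-starch 15-94 (LS), each sampled as roots at 30, 65 and 100 days of age with 3 libraries per age. All plants grew from roots set 1 to a pot in a greenhouse under natural light, and the labels name no treatment. Starch class and cultivar are the same split, each class being 1 cultivar, so a difference between them cannot be assigned to starch. Nothing in the labels ties a library to a plant, so the spread behind each p-value is that of the libraries and can be technical in part.

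Sweetpotato storage roots form when adventitious roots thicken through the activity of cambia, and their parenchyma then fills with starch made by starch synthases and branching enzymes. The same tissue accumulates the storage protein sporamin and the starch-degrading enzyme beta-amylase. The sampled ages fall in this course of thickening and filling. Which of these processes the 11 unigenes belong to cannot be said, because the files do not pair their IDs with gene names and 0 of the IDs matched the gene table of assembly IBA_r1.0. For the same reason the tissue could not be checked against marker genes. The unigenes are therefore called members 1 to 11 in order of falling mean FPKM, and the IDs of only 4 are printed.

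Read numbers are not given. The low FPKM values of a unigene in a library are whole multiples of what 1 read is worth there. This worth depends on transcript length, which drops out of the ratio of a unigene's values between libraries. Such ratios give relative depth unless the libraries were scaled further. On a log2 scale with HS 30 d replicate 2, the lowest, at 0, the value of 1 read ran from 0 to 1.21 in HS libraries and from 0.71 to 1.999 in LS libraries, and 7 of the 9 HS libraries had a smaller value than any LS library. Low-starch 65 d replicate 3 and 100 d replicate 3 stood apart: 25.8% and 40.5% of their FPKM fell to the top 10 unigenes of the library, a share that did not exceed 17.3% elsewhere. Without these 2 libraries 14 unigenes met the rule, and 7 of the 11 members were among them.

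The 11 members were of moderate abundance, with means from 5.25 to 107 FPKM. Together they made up from 0.00662% to 0.0943% of the FPKM of a library. In HS this share averaged 0.0185% ± 0.0163, 0.0386% ± 0.0261 and 0.0121% ± 0.0018 at the 3 ages in turn (SD, n = 3 each). In LS it averaged 0.0191% ± 0.0139, 0.0607% ± 0.0295 and 0.0320% ± 0.0270 (SD, n = 3 each). The mean share was highest at 65 days in both cultivars, as the rule requires of the single members, and libraries of different ages overlapped in both. In HS, 65 d replicate 1, at 0.00870%, lay below all 3 libraries at 100 days and below 2 of the 3 at 30 days. In LS, 100 d replicate 3, at 0.0627%, lay above 2 of the 3 libraries at 65 days. In these shares members 4 and 5, which have identical values, count as 2. Each was at 259 of the members' 923 FPKM in LS 100 d replicate 3, so the place of that library rests in large part on them.

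Few other unigenes took this course. Peaking at 65 days were 266 unigenes in HS and 267 in LS, and the 11 that did so in both made up 4.14% of the first and 4.12% of the second. For comparison, 1.60% of the 16616 unigenes peaked at 65 days in HS. The same rule turned over, with the lowest mean at 65 days, found 24 unigenes in both cultivars. Set for a peak at 30 days it found 245, and for a peak at 100 days 67, so a shared middle-age peak was the rarest of these 4 courses in number. The 245 made up 49.6% of the 494 unigenes peaking at 30 days in HS and 14.1% of the 1732 in LS. The 67 made up 6.47% of the 1035 peaking at 100 days in HS and 31.0% of the 216 in LS. Of all 16616 unigenes, 2.97% peaked at 30 days and 6.23% at 100 days in HS, and 10.4% and 1.3% in LS. The 24 made up 10.3% of the 234 unigenes lowest at 65 days in HS and 3.78% of the 635 in LS. Of all 16616 unigenes, 1.41% were lowest at 65 days in HS and 3.82% in LS.

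The rise from 30 to 65 days was larger in LS for 10 of the 11 members. On the log2(FPKM + 1) scale it had a median of 1.60 in LS, with a range from 1.11 to 3.65, and of 1.05 in HS, from 0.83 to 1.58. The fall from 65 to 100 days differed less between cultivars. The change had a median of -0.97 in LS, from -2.21 to -0.85, and of -1.12 in HS, from -2.16 to -0.92, and it was larger in LS for 4 members. The medians over the 16616 unigenes were between -0.02 and 0.02 for these 4 steps. The rule chose the members by these steps, so nothing is read from their order between the cultivars. Members 4 and 5 have identical values and count as 2. Members 4, 5, 9 and 11 averaged under 5 FPKM in HS, where the log2(FPKM + 1) scale understates changes.

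All members stood close to the limit of the rule in at least 1 step. The smallest of a member's 4 steps lay between 0.83 and 0.97, with 3 members under 0.9 and 0 at 1 or more. Just outside, the 2 nearest unigenes had smallest steps of 0.79 and 0.78, and 11 lay from 0.7 up to the limit. On the side of abundance, member 11 was nearest inside with a mean of 5.25 FPKM. The 17 unigenes that had the steps but not the abundance had means of up to 4.70 FPKM.

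**Figure D1:**
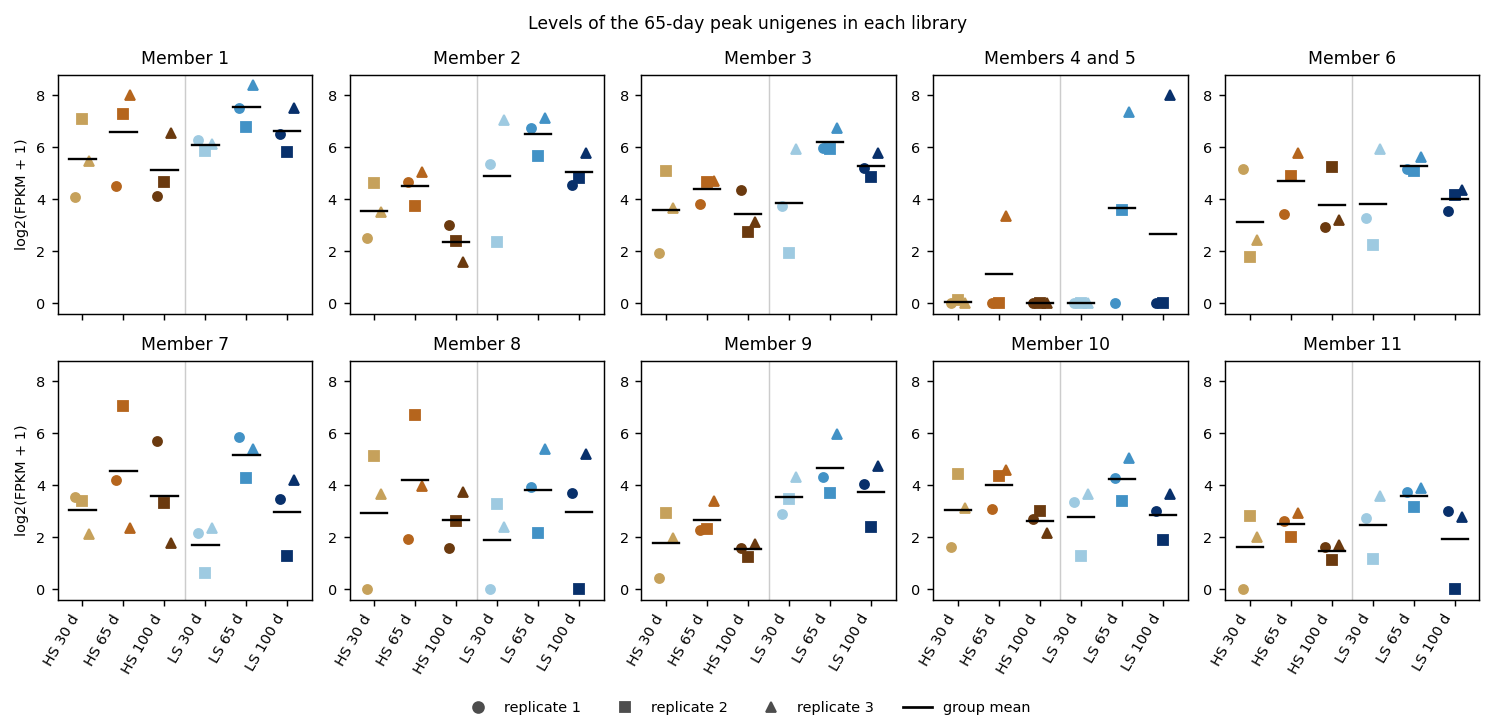
Level of each member as log2(FPKM + 1) (vertical axis) in the 3 libraries of each cultivar and age (horizontal axis; symbols mark replicate numbers, lines the group means; members 4 and 5 have identical values and share a panel). Group means are highest at 65 days by the choice of the members, while single libraries of the 3 ages overlap in every HS panel and in all LS panels but those of members 3 and 7.

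Members 4 and 5, Iba_34068 and Iba_34069, had the largest smallest step (0.97) and the least even values. Their 18 values were identical, they carry consecutive ID numbers, and they were the only such pair among the 16616 unigenes, so the 11 members hold 10 distinct profiles. Whether they are copies of 1 transcript between which reads were divided is not known. Each was listed at 0 in 13 of the 18 libraries. In HS they were at 0.08 FPKM in 30 d replicate 2, at 9.29 FPKM in 65 d replicate 3 and at 0 in the other 7 libraries. In LS they were at 0 in all 3 libraries at 30 days, at 0, 11.1 and 162 FPKM at 65 days and at 0, 0 and 259 FPKM at 100 days, in the order of replicates 1 to 3. The HS peak of this pair therefore lay in 1 library, and both high LS values lay in the libraries that stood apart. Without these 2 libraries the pair no longer met the rule. The peak in LS also depends on the log scale, since the mean FPKM was higher at 100 days (86.2 ± 149.4, SD, n = 3) than at 65 days (57.5 ± 90.2, SD, n = 3). The other 9 members had their highest mean FPKM at 65 days in LS, and all 11 did in HS.

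In the order of replicates 1 to 3, as for all members here, member 1, the most abundant, was at 16.0, 135 and 43.7 FPKM in HS at 30 days, at 21.7, 153 and 260 FPKM at 65 days and at 16.6, 24.6 and 93.7 FPKM at 100 days. In LS it was at 77.1, 56.6 and 68.3 FPKM at 30 days, at 181, 110 and 333 FPKM at 65 days and at 89.9, 56.0 and 181 FPKM at 100 days. In LS every 65-day library lay above every 30-day library, and the highest 100-day library lay within the 65-day range. In HS replicate 1 was as low at 65 days as the low libraries of the other ages.

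Member 3 was at 12.4, 2.82 and 59.9 FPKM in LS at 30 days, at 61.8, 60.1 and 106 FPKM at 65 days and at 36.1, 28.1 and 53.7 FPKM at 100 days. All 3 LS libraries at 65 days lay above the other 6, by a margin of 0.22 FPKM over the highest 30-day library. In HS it was at 2.80, 33.4 and 11.8 FPKM at 30 days, at 13.2, 24.6 and 25.0 FPKM at 65 days and at 19.2, 5.75 and 7.83 FPKM at 100 days. The highest HS value of this member was thus at 30 days, and no 65-day library lay above all libraries of the other ages.

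Member 7, Iba_31396, had the steepest rise in LS after the identical pair. It was at 3.45, 0.53 and 4.15 FPKM in LS at 30 days, at 57.5, 18.4 and 41.0 FPKM at 65 days and at 10.03, 1.41 and 17.3 FPKM at 100 days. The LS libraries at 65 days lay above the other 6 without overlap. In HS it was at 10.7, 9.64 and 3.39 FPKM at 30 days, at 17.4, 131 and 4.14 FPKM at 65 days and at 51.0, 8.97 and 2.39 FPKM at 100 days, where the 65-day mean rested mostly on replicate 2 and replicate 3 was lower than 2 of the 30-day libraries.

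Member 2, Iba_16831, was at 4.76, 24.0 and 10.4 FPKM in HS at 30 days, at 24.3, 12.5 and 32.4 FPKM at 65 days and at 7.09, 4.26 and 2.03 FPKM at 100 days. In LS it was at 39.5, 4.12 and 130 FPKM at 30 days, at 107, 50.05 and 137 FPKM at 65 days and at 22.2, 27.5 and 54.1 FPKM at 100 days. The 3 HS libraries at 65 days all lay above the 3 at 100 days, while LS 30 d replicate 3 reached almost the highest 65-day value.

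Member 9 was at 0.34, 6.73 and 2.91 FPKM in HS at 30 days, at 3.86, 3.95 and 9.48 FPKM at 65 days and at 2.03, 1.38 and 2.37 FPKM at 100 days. In LS it was at 6.44, 10.04 and 19.1 FPKM at 30 days, at 19.2, 11.99 and 62.6 FPKM at 65 days and at 15.7, 4.28 and 26.0 FPKM at 100 days. The 65-day libraries were highest through replicate 3 in both cultivars.

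The remaining 4 members ranged more widely than their group means. Member 6 ran from 2.45 to 59.7 FPKM and was highest in LS 30 d replicate 3. Member 8 ran from 0 to 104 FPKM, with 3 libraries at 0, and was highest in HS 65 d replicate 2. Member 10 ran from 1.45 to 32.2 FPKM, and member 11 ran from 0 to 13.8 FPKM, both highest in LS 65 d replicate 3. None of the 4 had 65-day libraries that were free of overlap with the other ages in either cultivar.

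Over all 11 members, separation by age was therefore rare. In HS 0 members had all 3 libraries at 65 days above the 6 libraries of the other ages, where 0.614% of the 16616 unigenes did. In LS members 3 and 7 did, where the share of all these unigenes was 0.758%. The rule used the same values, so nothing is read from these counts. In HS 8 members had just 1 of the 3 libraries at 65 days above all libraries of the other ages, 2 members had 2 and 1 had 0.

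By limma, none of the 11 members passed any of the 4 comparisons of successive ages, and nor did any other unigene (0 of 32529 called in each). A unigene was called at an adjusted p (Benjamini-Hochberg) under 0.05 together with a change of at least 2-fold. The smallest adjusted p of a member was 1 for the rise and 0.616 for the fall in HS, and 0.236 for the rise and 1 for the fall in LS. At an unadjusted limma p under 0.05, 0 and 1 members changed in HS and 2 and 1 in LS, where 2.56% and 7.44% of all unigenes tested did in HS and 12.3% and 3.33% in LS. These comparisons chose the members, so the values are given as a description.

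The members varied more within groups than most of the 16616 unigenes. Their SD between libraries of a group, pooled over the 6 groups on the log2(FPKM + 1) scale, had a median of 1.20 and ran from 0.95 to 2.54. The median over the 16616 unigenes was 0.62, and 9.47% of those unigenes had an SD of 1.20 or more. In HS 15 of the members' 22 steps were smaller than the members' median SD. In LS the median rise, 1.60, was above that SD and the median fall, 0.97, below it. A step is a difference between means of 3 libraries, while the SD is that of single libraries. The rule used the same libraries, so the members' SD is not free of their choice and is given as a description.

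**Figure D2:**
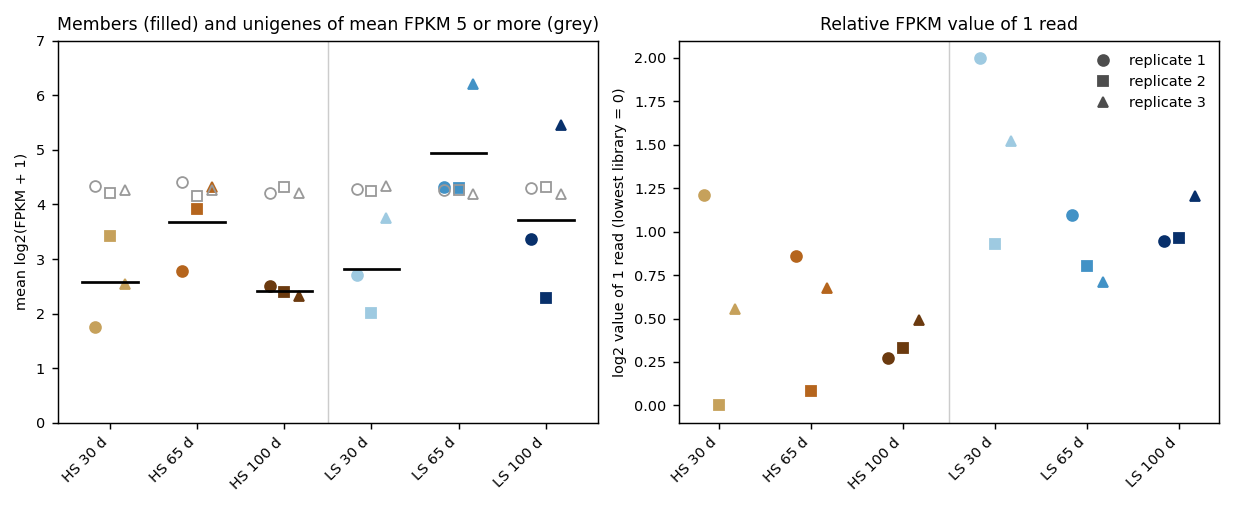
Left, mean log2(FPKM + 1) of the 11 members (filled symbols, with the group mean as a line) and of the 16616 unigenes with a mean of at least 5 FPKM (grey) in each library. Right, the log2 value of 1 read relative to HS 30 d replicate 2, a measure of relative depth. Member means run from 1.76 to 6.20, while the means of the 16616 unigenes stay between 4.16 and 4.41.

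Averaged over the members, the libraries of a group lay far apart in every group but HS at 100 days. In HS the mean log2(FPKM + 1) of replicates 1 to 3 was 1.76, 3.41 and 2.55 at 30 days, then 2.78, 3.91 and 4.32 at 65 days, and 2.51, 2.40 and 2.33 at 100 days. In LS it was 2.71, 2.01 and 3.76 at 30 days, 4.33, 4.31 and 6.20 at 65 days and 3.37, 2.29 and 5.46 at 100 days. The HS libraries at 100 days were within 0.18 of each other, and HS 30 d replicate 2 lay above HS 65 d replicate 1. In LS all libraries at 65 days lay above all those at 30 days, and 100 d replicate 3 lay above 2 of the 3 libraries at 65 days. The identical pair, members 4 and 5, counts as 2 in these means. With the pair counted once, LS replicates 1 to 3 at 65 days were at 4.76, 4.38 and 6.09.

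Relative depth moved with part of this spread. In HS at 30 days the order of the member means was the reverse of the order of the value of 1 read, which was 1.21, 0 and 0.56 (log2). At 65 days the lowest HS library had the largest value of 1 read (0.86, against 0.08 and 0.68). In LS at 65 days the highest library had the smallest value (0.71, against 1.09 and 0.80). At 100 days in LS the highest library had the largest value (1.20, against 0.95 and 0.96), and at 30 days in LS the 2 orders did not match. The part of depth in these levels was not tested.

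**Figure D3:**
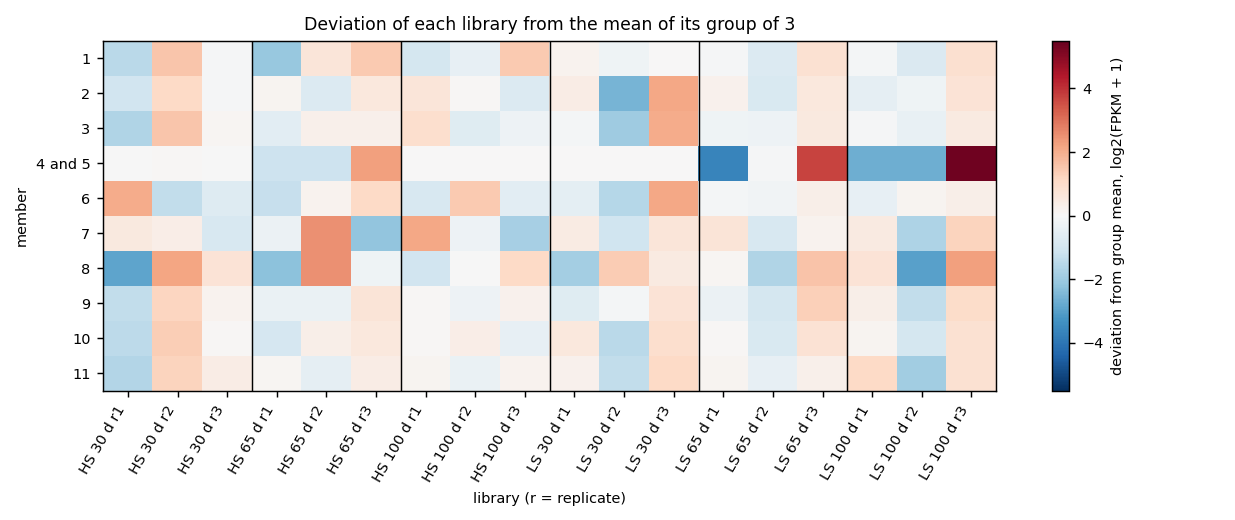
Deviation of each library from the mean of its group of 3, in log2(FPKM + 1), for the members (rows; 4 and 5 share a row) and the 18 libraries (columns; vertical lines part the groups). Most members are low together in HS 30 d replicate 1 and LS 100 d replicate 2 and high together in HS 30 d replicate 2 and LS 100 d replicate 3.

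The members deviated together from their group means. Between the 10 distinct profiles there were 45 pairs, and the correlation of their deviations over the 18 libraries had a median of 0.36. It was above 0 in 40 pairs and above 0.5 in 17, and ran from -0.17 to 0.86. Among pairs of every 10th of the 16616 unigenes the median was 0.00. The rule used the same libraries, and these correlations share library, depth and the choice of members, so they are a description. The closest pair was members 2 and 3 (0.86), followed by members 3 and 10 (0.82) and 10 and 11 (0.79).

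The common part was carried by some members more than by others. Members 10 and 9 had the highest median correlation with the other profiles, 0.66 and 0.65, and members 6 and 7 the lowest, 0.06 and 0.24. Members 6 and 7 had no correlation above 0.5 with another. In the counts of highest libraries that follow, the identical pair, members 4 and 5, counts as 2 members each time. In HS 30 d, replicate 2 was the highest of the 3 libraries for 9 of 11 members and replicate 1 the lowest for 7. For the identical pair this highest value was only 0.08 FPKM, against 0 in the others of the group. In HS 65 d, replicate 3 was the highest for 9. In LS 65 d and 100 d, replicate 3 was the highest of its group for 10 members each. Replicate 2 was the lowest in LS 65 d for 9 members and in LS 100 d for 7.

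Which unigenes met the rule depended on single libraries. Leaving out 1 library at a time gave from 3 to 37 unigenes in place of 11, and in 5 of the 18 omissions all 11 members still met the rule. Without HS 65 d replicate 3 only members 7 and 8 did, among 3 unigenes. Without HS 30 d replicate 1 only members 4, 5, 6 and 7 did, and without LS 65 d replicate 3 or LS 100 d replicate 2 only members 2, 6, 7 and 10 did. In the other direction, 37 unigenes met it without HS 65 d replicate 1, 34 without LS 65 d replicate 2, 24 without HS 30 d replicate 2 and 19 without LS 100 d replicate 3, and each of these lists held all 11 members.

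**Figure D4:**
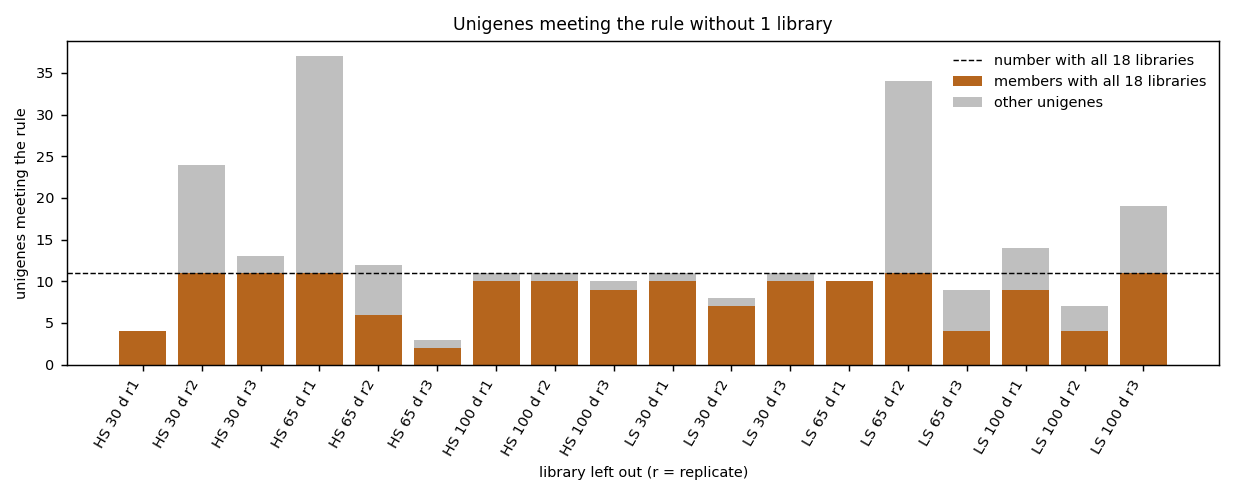
Number of unigenes that meet the rule (vertical axis) when the library named on the horizontal axis is left out, divided into the 11 members (brown) and other unigenes (grey). The dashed line marks the 11 found with all 18 libraries; the counts run from 3 to 37.

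Member 7 met the rule in 16 of the 18 omissions, the most of the 11, and member 2 in 15. Member 11 did so in 11 and member 3 in 12, the fewest. The other 7 members did so in 13 or 14. With group medians in place of means 33 unigenes met the rule, and members 1, 2, 6 and 10 were the only ones of the 11 among them.

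Averaged over the ages, members 2, 3 and 9 were lower in HS than in LS, and 0 members were higher. The steps of the rule compared ages within a cultivar, but its limit on abundance took the mean over both cultivars. Members 4, 5, 9 and 11 had a mean under 5 FPKM in HS and reached the limit through LS, while 0 members had a mean under 5 FPKM in LS. The counts and the median over the 11 are therefore not free of the choice of members, and nothing is read from them. Called lower were 3 of 11, where 7.21% of the 32529 unigenes tested were, and called higher were 0 of 11, where 11.1% were. The members' median difference, HS minus LS, was -0.99 on the log2(FPKM + 1) scale, against 0.17 over all unigenes tested. It was below 0 for 9 members, among them the identical pair, and above 0 for 2.

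Member 9 had 3.67 ± 2.84 FPKM in HS and 19.5 ± 17.5 FPKM in LS (SD, n = 9 each). It met the limit on abundance through LS, where it was higher, so its difference on the log2(FPKM + 1) scale, -2.001 (SE 0.41, limma adjusted p = 0.00141), is given as a description. Iba_16831 (member 2) had 13.5 ± 10.8 FPKM in HS and 63.5 ± 48.9 FPKM in LS (SD, n = 9 each), the largest difference of the 11, at -2.03 (SE 0.49, limma adjusted p = 0.00504). Member 2 averaged over 5 FPKM in each cultivar, as did member 3. Member 2 kept its call in all 27 alternative settings. Member 9 did so too, but these settings left the choice of members as it was, so for member 9 this remains a description. Member 3 had 16.0 ± 10.2 FPKM in HS and 46.7 ± 30.9 FPKM in LS (SD, n = 9 each), a difference of -1.33 (SE 0.47, limma adjusted p = 0.0442). That call was lost in 19 of the 27 settings, among them the fit without the 2 LS libraries that stood apart (-1.16, limma adjusted p = 0.132; over the settings the adjusted p ran from 0.0066 to 0.132). Libraries of the 2 cultivars overlapped for each of the 3 members.

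The other 8 members did not pass. Iba_34068 and Iba_34069 had a difference of -1.72 (SE 1.01, limma adjusted p = 0.223), with a value above 0.08 FPKM in 1 HS library and 3 LS libraries, and of -0.21 without the 2 LS libraries that stood apart. Iba_31396 had the largest difference in the other direction, 0.43 (SE 0.62, limma adjusted p = 0.64), at 26.5 ± 41.9 FPKM in HS and 17.1 ± 19.8 FPKM in LS (SD, n = 9 each). Member 1 had -0.99 (SE 0.49, limma adjusted p = 0.145), and member 10 had -0.05 (SE 0.42, limma adjusted p = 0.94).

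**Figure D5:**
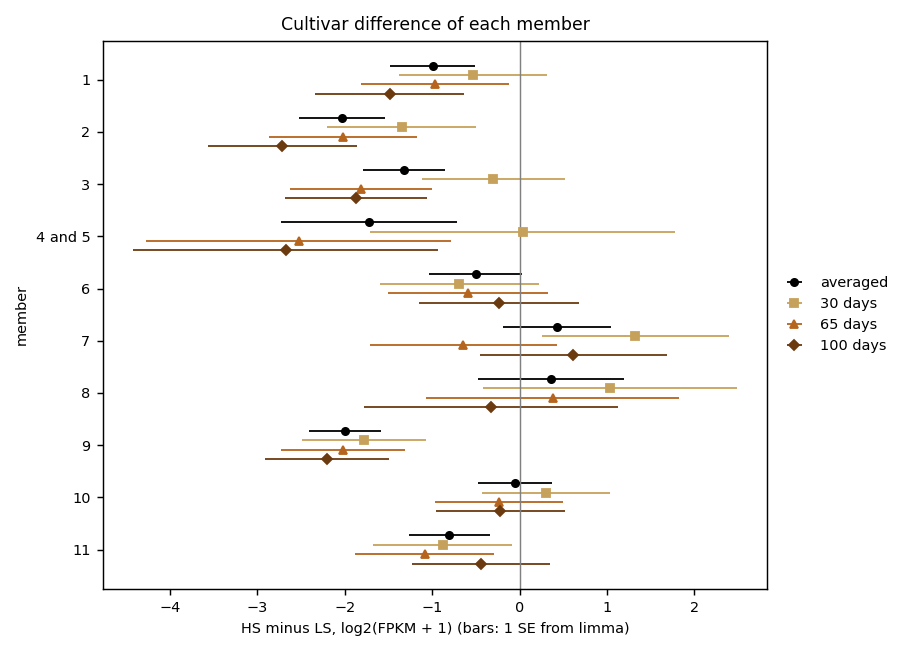
Difference between the cultivars, HS minus LS on the log2(FPKM + 1) scale (horizontal axis), for each member (vertical axis), averaged over the ages and at 30, 65 and 100 days; bars are 1 SE from limma. Members 1, 2, 3, 6, 9 and 11 lie below 0 at every age, and members 4 and 5 have the widest bars.

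At single ages no member passed in the unpaired fit to all 6 groups. Here too nothing is read from the counts and medians over the 11. At 30 days the members' median difference was -0.30 on the log2(FPKM + 1) scale, with 6 members below 0, and 2.9% of all unigenes tested were called lower and 4.25% higher. At 65 days it was -1.08, with 10 below 0, against 4.03% and 6.19% called. At 100 days it was -1.49, with 10 below 0, against 3.93% and 5.21%. The smallest limma adjusted p of a member was 0.159, 0.0832 and 0.0537 at the 3 ages in turn. At an unadjusted p under 0.05, 1, 3 and 3 members were lower in HS, where 7.61%, 9.23% and 9.62% of all unigenes tested were. Each age rests on 3 libraries per cultivar. With only the 6 libraries of an age in the fit 1 member was called lower at 65 days and 2 at 100 days. Of the 32529 unigenes tested, 762 and 1720 were called lower in these fits. With the replicate number as a block the counts were likewise 1 and 2 members, against 1443 and 1429 of all unigenes tested.

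The ages of 30 and 100 days, each compared with 65 days by the rule but not with each other, did not differ by call for any member. The rule set a floor on the steps from both ages to 65 days in these libraries, so it also bears on their difference. The values and counts here are therefore a description, and nothing is read from them. In HS 9 members were lower at 100 days than at 30 days, with a median change of -0.16 on the log2(FPKM + 1) scale, and the smallest limma adjusted p was 0.755. In LS 10 members were higher at 100 days, with a median change of 0.53, and the smallest limma adjusted p was 0.649. Of all unigenes tested, 0% were called in HS, and 0.0246% were called higher and 0.0154% lower in LS. At an unadjusted limma p under 0.05, 0 members changed in either cultivar, where 7.87% of the unigenes tested did in HS and 8.69% in LS. LS 100 d replicate 3, which stood apart, was the highest of its group for 10 members, the identical pair counted as 2 of them.

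The difference between these 2 changes was tested as an interaction, added after the values were seen. The change from 30 to 100 days in LS minus that in HS was above 0 for 9 members, with a median of 0.96 on the log2(FPKM + 1) scale. No member passed (smallest limma adjusted p = 0.923, 0 at an unadjusted p under 0.05), and 0% of the unigenes tested were called in either direction (5.17% at an unadjusted p under 0.05). The interaction is built from the same 2 changes, so it is likewise given as a description. For members 4 and 5 the difference was 2.71 with an SE of 2.47, and for member 3 it was 1.57 with an SE of 1.15.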

How the data were processed

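The authors deposited 1 table of FPKM values for 46840 unigenes and 18 libraries, 3 for each of 2 cultivars at 3 ages. Per the labels' protocols, root RNA was extracted with Trizol, cleared of DNA (TURBO DNA-free) and sequenced as TruSeq stranded mRNA libraries. The submitters' processing notes name edgeR without a role. Which assembler, aligner and counter were used, and whether libraries were scaled to each other, was not stated in the sources used here. Absolute depth is unknown, so no counting interval or floor is given, and the precision of low values is not known.

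The members, the tests and the alternatives were chosen with earlier results of these data known. The 32529 unigenes that reached 1 FPKM in 3 or more libraries, the 11 members among them, entered a limma fit (version 3.58.1, R 4.3.3) of log2(FPKM + 1) on 6 groups with an eBayes trend, and p-values were adjusted by Benjamini-Hochberg over all of them. This scale understates changes of low unigenes. Printed IDs are those of the 2 members with the largest smallest step and of the members with the largest averaged cultivar difference in each direction. Members 1, 3 and 9 were singled out after their values were seen, as were other members that the text takes up by number.

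Relative depth was fitted to the ratios of low values, 100% of library pairs lying within 0.05 (log2) of the fit, with a largest error of 0.0015 on simulated data. On simulated data with 50 unigenes changed by each size among 32529, limma called 24% of those changed by 1 (log2) and 86% of those changed by 2 in the averaged cultivar comparison, and 0% and 42% for 30 against 100 days in HS. The changed unigenes were drawn only from the more abundant ones, with normal noise at each unigene's own SD. A call also needed an estimated change of at least 1 (log2), so estimates of a true change of 1 could fall short of it. These rates were not measured for the members, which varied more within groups than most. No label ties same-numbered libraries of the 2 cultivars. They were to count as paired where the deviations from the group means correlated above 0.1 in every pair, which held at 65 days (from 0.102 to 0.4) but in 1 of 3 pairs at 30 days and 2 of 3 at 100 days, 6 of 9 in all. The main fit was unpaired at every age, 65 days included. No fit paired the cultivars within an age. The replicate block, an alternative, gave each replicate number 1 effect shared by all ages and both cultivars. With it 1 member was called lower at 65 days. Alternatives were other pseudocounts, filters, scalings and thresholds, group medians, eBayes with no trend, a replicate block, fits restricted to the compared libraries and the omission of each library. Figures and counts used Python 3.11.15, NumPy 2.4.6, pandas 2.3.3 and matplotlib 3.10.9.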

Additional observations from a re-analysis of the deposited data

Results flagged for a closer look

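In 22 sets of 9 libraries (the 10 distinct profiles and their mean in each cultivar) the distance of the highest or lowest library to its nearest neighbour was set against Dixon's limit for 9 values. It was exceeded in 1 set. Members 4 and 5 (Iba_34068 and Iba_34069) were at 3.36 on the log2(FPKM + 1) scale in HS 65 d replicate 3 and at or near 0 in the other 8 HS libraries, a gap of 0.967 of the range. For values from 1 normal population chance flags about 1 in 20 sets. These sets pool the ages, and the flagged one is mostly at 0, so that rate does not apply here. The rule used these values, so the gap is a description.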

How the results depend on the processing

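The number of unigenes that met the rule was 11 and depended on its settings. It was 27 with a pseudocount of 0.1 and 20 with 0.5, 40 with a step of at least 0.6 and 0 with a step of at least 1. It was 21 at a mean of at least 1 FPKM, 28 with no filter on the mean and 33 with group medians. Leaving out 1 library gave from 3 to 37. It was 10 at a mean of at least 10 FPKM, 11 under median-of-ratios scaling and under quantile normalization, and 14 without the 2 LS libraries that stood apart.

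With the 11 members fixed, the averaged cultivar comparison called 2 or 3 members lower and 0 higher in HS in each of the 27 alternatives. Over all unigenes tested, which numbered from 20869 to 43810, these settings called from 1828 to 2689 lower and from 2132 to 4987 higher. At 65 days 1 member was called lower with a replicate block and 1 with only the libraries compared, in place of 0. Of the 32529 unigenes tested, 1443 and 762 were called lower in these fits. At 100 days 1 was called lower with a pseudocount of 0.1 and 1 with 0.5, 2 under quantile normalization, 2 with a replicate block and 2 with only the libraries compared. Over all unigenes tested these settings called 1428, 1350, 1458, 1429 and 1720 lower, in the same order. Leaving out 1 library gave from 0 to 1 members called lower at 30 days and from 0 to 1 at 100 days. The 1 at 30 days came without LS 30 d replicate 2, where 1052 of all unigenes tested were called lower. The 1 at 100 days came without LS 100 d replicate 2, where 914 were. The cause of these moves was not tested. The averaged difference of Iba_34068 and Iba_34069 ran from -2.33 to -0.83 when 1 library was left out. The comparisons of 30 with 100 days called 0 members in every setting run, and so did their interaction, which was added after seeing the data together with its alternatives.

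No label says that the replicate numbers pair the libraries. In 7 of 9 cases an HS library correlated best with the LS library of its own number at the same age, a hint from the data only. With the replicate block, which is shared over the ages, the averaged comparison called 3 members lower, as without it, against 2432 of the 32529 unigenes tested. With 3 libraries per group and unknown absolute depth, smaller differences between ages may have been missed.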
